A study of Mus musculus with 10 samples.

Results

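The 10 genes described here belong to the fibroblast growth factor (FGF) pathway. They comprise the ligand gene Fgf4, the receptor genes Fgfr1, Fgfr2, Fgfr3 and Fgfr4, the feedback inhibitor genes Spry2, Spry4 and Dusp6, and the target genes Etv4 and Etv5. They were taken by name from a table of 35976 genes, and all 10 were found. The list was chosen with earlier results of these data known. Their messenger RNA was counted in 10 libraries of mouse morulae, and the question put to them was how their levels compare between embryos with a knockout of Jarid2, which encodes an accessory subunit of a Polycomb repressive complex, and embryos without it.

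All embryos were of the strain combination BDF1 x PWK. In the set of single embryos, each library came from 1 female morula, with 3 Jarid2 knockout embryos (replicates 1, 3 and 4) and 3 wild-type embryos (replicates 1 to 3). A knockout replicate 2 of this set was not analysed here. In the set of pools, each library came from about 20 morulae, with 2 Jarid2 knockout pools and 2 control pools (titled CTR, not wild type). The sources used here do not give the sex of the pooled embryos, the exons removed in the knockout, or whether the pools came from separate litters. The p-values in pools therefore reflect only how these libraries vary, which may be technical.

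An FGF binds its receptor tyrosine kinase together with heparan sulphate chains on the cell surface, and the active receptor signals through adaptor proteins to Ras and the kinase ERK. ERK signalling switches on Etv4, Etv5 and the inhibitor genes Spry2, Spry4 and Dusp6, so their transcripts are widely read as a sign of pathway activity. In the mouse blastocyst, FGF4 from epiblast precursors acts through FGFR1 and FGFR2 to direct neighbouring inner cells towards primitive endoderm, and the trophectoderm also responds to FGF4.

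Total counts ran between 14830332 and 18696312 in the single-embryo libraries and between 41003216 and 49861963 in the pools. Jarid2 itself had 156.1, 318.7 and 61.3 CPM (counts scaled to the library's total) in the knockout single embryos 1, 3 and 4, against 580.3, 686.0 and 775.6 CPM in the wild-type embryos 1 to 3. It had 180.6 and 157.9 CPM in the knockout pools, against 442.5 and 496.3 CPM in the control pools. All knockout libraries lay below all controls of their set, and none of them lacked the transcript. The log2 change (knockout over control) was -1.92 (SE 0.43, adjusted p = 0.0342, edgeR) in single embryos and -1.55 (SE 0.18, adjusted p = 0.0794) in pools. In single embryos Jarid2 did not pass without wild-type embryo 1 (adjusted p = 0.0989) or 3 (0.109) or without knockout embryo 1 (0.127) or 4 (0.0735), while in pools Jarid2 passed under 8 of 10 alternatives, by DESeq2 and limma-voom among them. All 10 listed markers of the morula had counts in every group, with summed levels of 3845 to 5059 CPM in knockout and 4826 to 4900 CPM in wild-type single embryos, and 4071 to 4079 CPM in knockout and 4365 to 4418 CPM in control pools. Of these 10, Cdh1 (E-cadherin) fell in single embryos (-1.91, SE 0.32, edgeR adjusted p = 0.0180), where 4.37% of all genes passed. It averaged 160.4 CPM in knockout and 608.4 CPM in wild-type single embryos. In pools it averaged 198.6 CPM in the knockout and 163.8 CPM in the control (0.18, SE 0.26, adjusted p = 0.945). No other of the 10 passed in either set. Of 10 cumulus cell markers, 7 or 8 were at 0 counts in each group, and their summed level stayed at or under 0.877 CPM in each library. On the first principal component of all genes, which held 37.93% of the variance, the wild-type single embryos stood apart at 41.33 to 77.51, while the knockout single embryos lay at -41.67 to 11.82, the knockout pools at -39.21 to -17.56 and the control pools at -38.24 to -22.58.

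Among single embryos, the receptor genes Fgfr1 and Fgfr2 were lower in the Jarid2 knockout, at 0.262 and 0.453 of the wild-type mean. These were the members that passed the test at 5%, 2 of the 9 tested in single embryos, both lower, beside 605 of all 13830 genes tested there (4.37%). No member passed among pools, where 0 of 16259 genes did (0%). The median log2 change of the members tested was -0.95 in single embryos, with 7 of 9 below 0, and -0.18 in pools, with 8 of 10 below 0, while the medians over all genes tested were -0.03 and 0.01. At an unadjusted p under 0.05, 5 of 9 members passed in single embryos (22.6% of all genes) and 1 of 10 in pools (6.6% of all genes). In pools, limma-voom and DESeq2 also called 0 members.

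**Figure D1:**
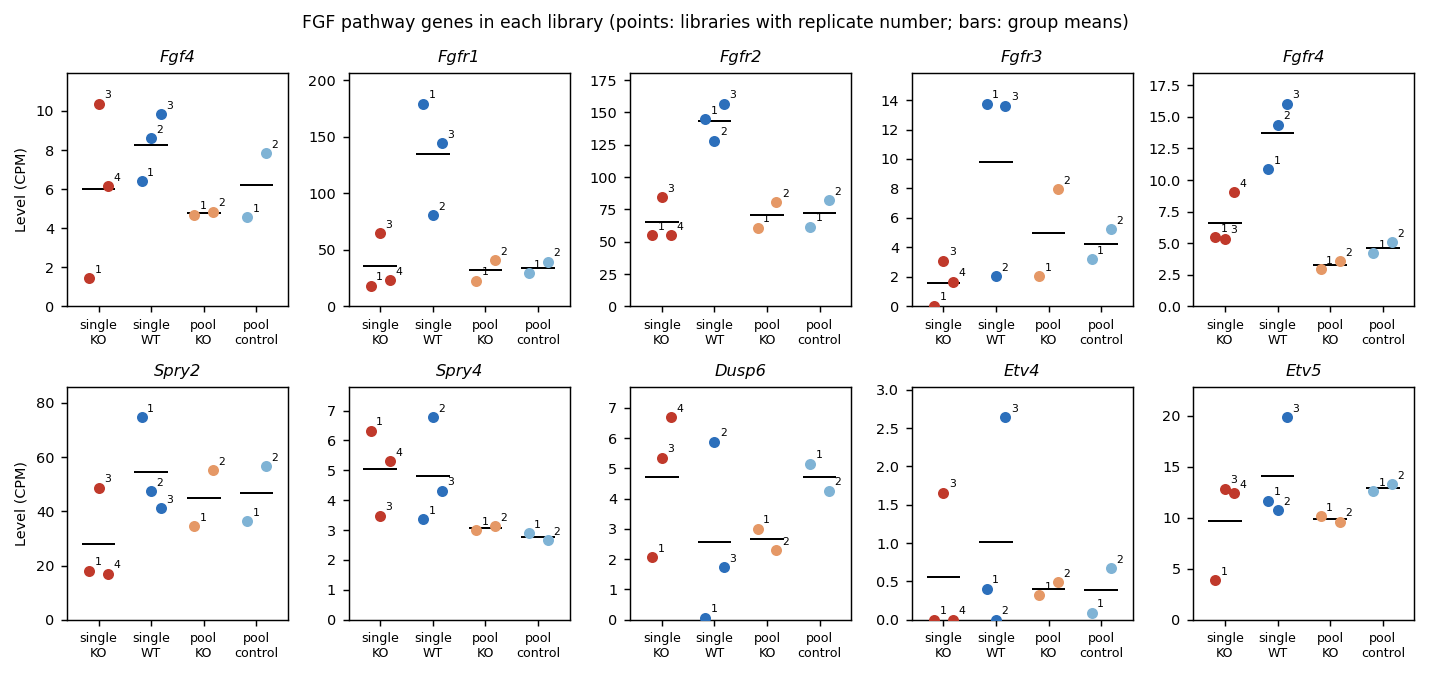
Level of each of the 10 FGF pathway genes in every library, in CPM (linear axis from 0, own scale per gene). Points are libraries with their replicate number, black bars are group means. For Fgfr1, Fgfr2 and Fgfr4 all 3 knockout single embryos lie below all 3 wild-type single embryos, while for Fgfr1 and Fgfr2 the knockout and control pools overlap.

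The ligand gene Fgf4 encodes the FGF of the early epiblast. Its level was 1.4, 10.4 and 6.1 CPM in the knockout single embryos 1, 3 and 4, against 6.4, 8.6 and 9.8 CPM in the wild-type embryos 1 to 3. It was 4.7 and 4.9 CPM in the knockout pools, against 4.6 and 7.8 CPM in the control pools. The groups overlapped in both sets, and knockout embryo 3 had the highest level of all 10 libraries. The log2 change was -0.47 (SE 0.63, 95% interval -1.86 to 0.92, adjusted p = 0.715) in single embryos and -0.46 (SE 0.31, interval -1.15 to 0.23, adjusted p = 0.856) in pools, so no difference was detected at this depth and spread. Fgf4 lies on chromosome 7, from 144861386 to 144865245 on the plus strand (GRCm38.p6).

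Other FGF genes were read beside it. Of 21 further FGF genes, 14 stayed at or under 1 CPM in each library. Fgf2, Fgf6 and Fgf16 had 0 counts in every library, which allows up to 0.06 to 0.20 CPM (3 counts, counting error only). Fgf3, whose product acts on the FGFR2b and FGFR1b receptor forms, averaged 2.97 CPM in knockout and 2.31 CPM in wild-type single embryos, and 4.68 CPM in knockout and 4.14 CPM in control pools. Only 4 of the 21 could be tested in single embryos and 9 in pools, and none passed at 5% by edgeR, DESeq2 or limma-voom. At an unadjusted p under 0.05, 0 and 2 passed, beside 22.6% and 6.6% of all genes. The smallest p among them in pools were those of Fgf13, which encodes an intracellular, non-secreted FGF (3.67 ± 1.84 CPM in knockout and 1.55 ± 0.0776 CPM in control pools, log2 change 1.14, SE 0.41, adjusted p = 0.672), and of Fgf1 (4.82 ± 3.33 CPM in knockout and 1.94 ± 0.300 CPM in control pools, 1.20, SE 0.45, adjusted p = 0.697). In single embryos they were those of Fgf18 (1.71, SE 1.17, adjusted p = 0.430) and Fgf11 (-1.53, SE 1.19, adjusted p = 0.495).

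The 4 receptor genes encode transmembrane tyrosine kinases. Promoters of 3 of them are shown because both members that passed the test in single embryos are receptor genes, and CG dinucleotides, which are common at sites that Polycomb complexes are known to bind, are in capitals. No window is shown for Fgfr1. Each run gives the 250 bases before the gene's start, 5′ to 3′ on the gene's strand, from RefSeq (GRCm38.p6). The windows are chr7:130266809-130267058 (minus strand) for Fgfr2, chr5:33721474-33721723 (plus strand) for Fgfr3 and chr13:55152568-55152817 (plus strand) for Fgfr4.
Fgfr2: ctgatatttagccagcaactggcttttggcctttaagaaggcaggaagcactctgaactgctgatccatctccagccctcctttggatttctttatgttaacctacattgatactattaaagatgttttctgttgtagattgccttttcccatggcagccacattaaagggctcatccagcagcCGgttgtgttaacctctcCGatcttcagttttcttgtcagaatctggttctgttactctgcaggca
Fgfr3: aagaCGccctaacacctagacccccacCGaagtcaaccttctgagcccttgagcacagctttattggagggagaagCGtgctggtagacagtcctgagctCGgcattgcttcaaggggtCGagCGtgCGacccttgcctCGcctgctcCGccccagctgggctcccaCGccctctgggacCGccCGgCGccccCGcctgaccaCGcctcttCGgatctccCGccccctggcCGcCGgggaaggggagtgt
Fgfr4: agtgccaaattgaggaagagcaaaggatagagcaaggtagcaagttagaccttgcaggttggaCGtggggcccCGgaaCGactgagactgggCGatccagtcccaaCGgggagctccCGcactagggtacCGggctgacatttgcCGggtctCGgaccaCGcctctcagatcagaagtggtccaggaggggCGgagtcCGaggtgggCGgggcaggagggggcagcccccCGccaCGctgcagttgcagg
CG reads the same on both strands. The Fgfr2 window holds 2 CG, and 81.2% of 32851 promoter windows hold as many or more. The Fgfr3 window holds 19 and the Fgfr4 window 15, with 19.7% and 27.3% of windows holding as many or more. The median over all windows is 6, and 92.1% hold at least 1. The counts describe these windows alone, and binding to them was not measured. Bases after the start, and any other start of the same gene, were not counted.

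Fgfr1, a receptor of the inner cell mass, lies on chromosome 8, from 25518759 to 25575718. Its level was 18.3, 64.6 and 23.2 CPM in the knockout single embryos 1, 3 and 4, against 179.5, 80.5 and 144.5 CPM in the wild-type embryos 1 to 3. It was 22.6 and 41.1 CPM in the knockout pools, against 29.3 and 39.4 CPM in the control pools. The single-embryo groups did not overlap, whereas the knockout pools lay on either side of the control pools. The means were 35.4 ± 25.4 CPM in knockout and 134.8 ± 50.2 CPM in wild-type single embryos (SD, n = 3 each), which the fit gave as -1.93 on the log2 scale (SE 0.44, 95% interval -2.90 to -0.97, edgeR adjusted p = 0.0359). In pools the change was -0.21 (SE 0.25, interval -0.77 to 0.35, adjusted p = 0.923). The call in single embryos was lost without wild-type embryo 1 (adjusted p = 0.148), wild-type embryo 3 (0.112), knockout embryo 1 (0.126) or knockout embryo 4 (0.144), in fits of -1.86 to -1.65, and the adjusted p ranged from 1.24e-09 to 0.148 over all alternatives. Fgfr1 overlaps the genes Gm31288, with 22 to 258 counts per library, and Gm16159, with 0 to 9, and how strand was handled is not given, so their reads cannot be told apart from its own.

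Fgfr2, the receptor gene that in the blastocyst marks primitive endoderm and trophectoderm, lies on chromosome 7, from 130162451 to 130266808 on the minus strand. Its level was 55.2, 84.6 and 54.9 CPM in the knockout single embryos 1, 3 and 4, against 144.8, 128.0 and 156.8 CPM in the wild-type embryos 1 to 3. It was 60.7 and 80.5 CPM in the knockout pools, against 61.6 and 82.2 CPM in the control pools. The single-embryo groups were clear of each other, and the 2 pool groups were nearly equal. The means were 64.9 ± 17.1 CPM in knockout and 143.2 ± 14.4 CPM in wild-type single embryos (SD, n = 3 each), which the fit gave as -1.11 on the log2 scale (SE 0.23, 95% interval -1.61 to -0.61, edgeR adjusted p = 0.0267). In pools the change was -0.12 (SE 0.19, interval -0.54 to 0.31, adjusted p = 0.950). Without the same libraries the single-embryo fits gave -1.11 (wild-type embryo 1, adjusted p = 0.0985), -1.02 (wild-type embryo 3, 0.110), -1.05 (knockout embryo 1, 0.101) and -1.02 (knockout embryo 4, 0.112), which lost the call, and the adjusted p ranged from 0.000446 to 0.190 over all alternatives.

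Fgfr3, on chromosome 5 from 33721724 to 33737068, had 0.1, 3.1 and 1.7 CPM in the knockout single embryos 1, 3 and 4, against 13.8, 2.1 and 13.6 CPM in the wild-type embryos 1 to 3. The first of these values rests on 1 read, and the groups overlapped through wild-type embryo 2. The knockout pools had 2.0 and 8.0 CPM and the control pools 3.2 and 5.2 CPM. The log2 change was -2.63 (SE 1.04, 95% interval -4.91 to -0.35, edgeR adjusted p = 0.161) in single embryos, which did not pass, and 0.12 (SE 0.50, adjusted p = 0.985) in pools. DESeq2 called Fgfr3 in single embryos (-2.61, adjusted p = 0.0325), as did edgeR without the filter on low counts (-2.62, 0.00974). Its knockout level spanned 1 to 58 reads, so the size of the difference is poorly fixed.

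Fgfr4, on chromosome 13 from 55152818 to 55168759, had 5.5, 5.3 and 9.0 CPM in the knockout single embryos 1, 3 and 4, against 10.9, 14.4 and 16.0 CPM in the wild-type embryos 1 to 3. It had 2.9 and 3.6 CPM in the knockout pools, against 4.2 and 5.1 CPM in the control pools. Among the receptors it was the 1 whose knockout and control libraries were apart in both sets, lower in the knockout each time. The log2 changes were -1.0 (SE 0.43, 95% interval -1.94 to -0.07, edgeR adjusted p = 0.191) in single embryos and -0.61 (SE 0.30, interval -1.29 to 0.07, adjusted p = 0.793) in pools, neither past the threshold. Over both sets the average effect was -0.83 (SE 0.29, adjusted p = 0.315). Groups without overlap and lower in the knockout were common: 3 of the 9 members tested in single embryos (Fgfr1, Fgfr2, Fgfr4), against 15.3% of all genes, and 3 of 10 in pools (Fgfr4, Dusp6, Etv5), against 11.1% of all genes.

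**Figure D2:**
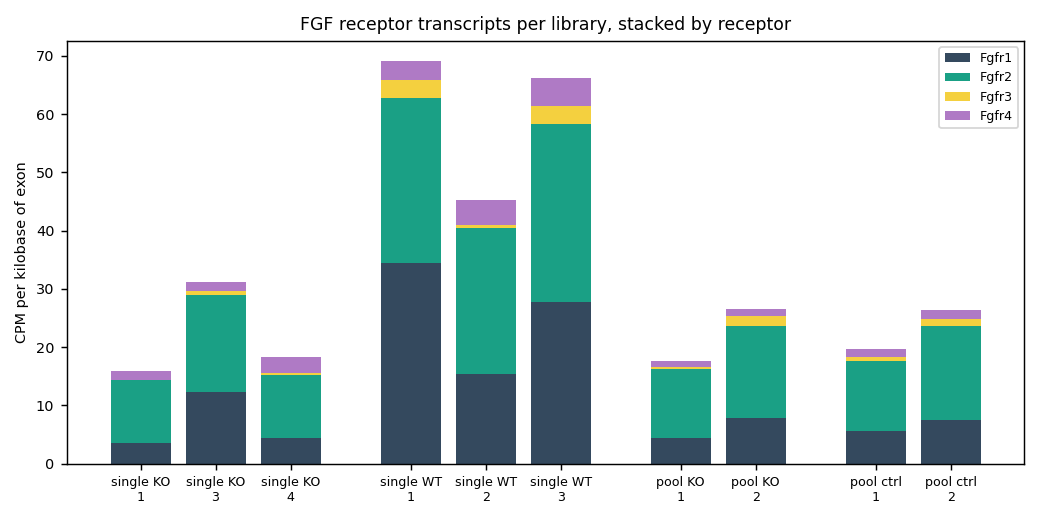
Transcript level of the 4 FGF receptor genes in each library, stacked, as CPM per kilobase of merged exon (linear axis from 0; KO is knockout, WT wild type, ctrl control, numbers are replicates). The wild-type single embryos reach 45.3 to 69.1, above the knockout single embryos and all pools.

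Per kilobase of exon, the receptors together came to 16.0, 31.2 and 18.3 CPM per kilobase in the knockout single embryos 1, 3 and 4, against 69.1, 45.3 and 66.3 in the wild-type embryos 1 to 3. The sums were 17.6 and 26.5 in the knockout pools, against 19.6 and 26.4 in the control pools. The knockout single embryos thus lay near both kinds of pool, and the wild-type single embryos lay above them. Fgfr2 made up 67.6%, 53.0% and 58.7% of this sum in the knockout single embryos, against 41.0%, 55.3% and 46.2% in the wild-type embryos. Fgfr1 made up 22.0%, 39.6% and 24.3% in the knockout single embryos, against 49.8%, 34.1% and 41.8% in the wild-type embryos. The shares overlapped between genotypes through knockout embryo 3 and wild-type embryo 2. In pools the Fgfr1 share was 24.7% and 29.7% in the knockout, against 28.6% and 28.7% in the control.

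Every wild-type single embryo was above each of the other 7 libraries for 3 of the 10 members (Fgfr1, Fgfr2 and Fgfr4), and the same held for 10.1% of 15878 genes. The difference between the sets was then tested as an interaction, the knockout effect in single embryos minus that in pools. It was -0.97 for Fgfr2 (SE 0.33, 95% interval -1.68 to -0.26, edgeR adjusted p = 0.240) and -1.70 for Fgfr1 (SE 0.66, interval -3.12 to -0.28, adjusted p = 0.275). None of the 10 members passed, and 1 of 15878 genes did (0.0063%), while 2 of 10 members and 14.6% of all genes had an unadjusted p under 0.05. The receptor changes are therefore not shown to differ between single embryos and pools by this test. DESeq2 called the difference for Fgfr2 (-0.95, adjusted p = 0.0485), and edgeR without the filter on low counts called it for Fgfr1 (-1.66, adjusted p = 0.00557). Embryo number, depth and the label of the controls (wild type in single embryos, CTR in pools) go with the set. They cannot be told apart from it. Sex may go with it too, since the single embryos were female and that of the pooled embryos is not given. In bulk libraries, fewer cells of a type and less RNA per cell cannot be told apart either.

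Averaged over both sets in a fit of all 10 libraries, the knockout effect was -1.23 for Fgfr1 (SE 0.40, adjusted p = 0.291) and -0.70 for Fgfr2 (SE 0.21, adjusted p = 0.258). No member passed, where 0 of 15878 genes did (0%), and 3 of 10 members (Fgfr1, Fgfr2 and Fgfr4) and 11.6% of all genes had an unadjusted p under 0.05. DESeq2 called 1 member, Fgfr1 (-1.23, adjusted p = 0.0445). The median over the members was -0.59, beside 0.03 over all genes.

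**Figure D3:**
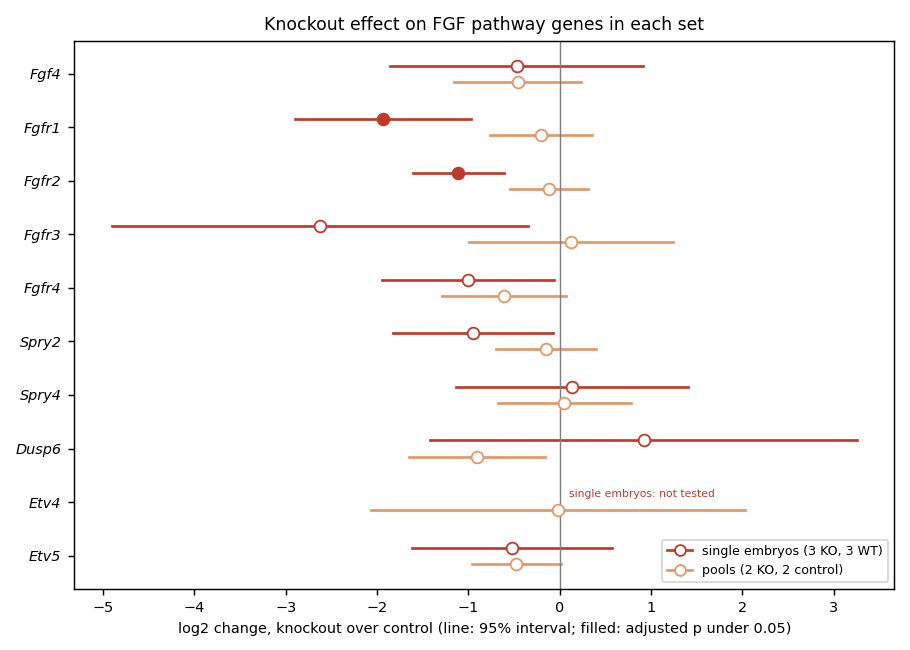
Log2 change, knockout over control, of each FGF pathway gene in single embryos (upper symbol, 3 knockout and 3 wild-type) and in pools (lower symbol, 2 knockout and 2 control), with 95% intervals from the edgeR fits; filled symbols have an adjusted p under 0.05. Fgfr1 at -1.93 and Fgfr2 at -1.11 in single embryos are the filled ones, and the pool intervals of all members but Dusp6 include 0.

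The feedback genes were read next. Spry2 encodes a Sprouty protein that inhibits receptor tyrosine kinase signalling to ERK and lies on chromosome 14, from 105891947 to 105896819. Its level was 18.0, 48.7 and 17.0 CPM in the knockout single embryos 1, 3 and 4, against 74.8, 47.5 and 41.2 CPM in the wild-type embryos 1 to 3. It was 34.4 and 55.2 CPM in the knockout pools, against 36.4 and 56.8 CPM in the control pools. Knockout embryos 1 and 4 lay below all wild-type embryos, and knockout embryo 3 lay among them. The log2 change was -0.95 (SE 0.40, 95% interval -1.83 to -0.08, edgeR adjusted p = 0.183) in single embryos, not past the threshold, and -0.15 (SE 0.24, adjusted p = 0.950) in pools. Without knockout embryo 3 it was -1.53 (adjusted p = 0.0279), and without the filter on low counts -0.95 (0.0403).

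Spry4, a second Sprouty gene, had 6.3, 3.5 and 5.3 CPM in the knockout single embryos 1, 3 and 4, against 3.4, 6.8 and 4.3 CPM in the wild-type embryos 1 to 3. It had 3.0 and 3.1 CPM in the knockout pools, against 2.9 and 2.7 CPM in the control pools. The single-embryo groups overlapped throughout. The pools did not overlap and were higher in the knockout, as for 24.3% of all genes, and the change was 0.05 on the log2 scale (SE 0.33, edgeR adjusted p = 0.994). In single embryos the change was 0.13 (SE 0.58, adjusted p = 0.920).

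Dusp6 encodes the phosphatase that inactivates ERK in the cytoplasm, and lies on chromosome 10, from 99263231 to 99267489. Its level was 2.1, 5.3 and 6.7 CPM in the knockout single embryos 1, 3 and 4, against 0.1, 5.9 and 1.7 CPM in the wild-type embryos 1 to 3. It was 3.0 and 2.3 CPM in the knockout pools, against 5.2 and 4.3 CPM in the control pools. The single-embryo groups overlapped, and both knockout pools lay below both control pools. The log2 change was 0.92 (SE 1.06, 95% interval -1.42 to 3.26, edgeR adjusted p = 0.664) in single embryos and -0.91 (SE 0.33, interval -1.65 to -0.16, adjusted p = 0.682) in pools. The fitted changes thus had opposite signs, neither passed, and their difference did not pass either (1.86, SE 1.42, adjusted p = 0.583). Dusp6 overlaps Gm34921, which had 0 to 4 counts.

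The target genes Etv4 and Etv5 encode ETS transcription factors that are switched on by FGF signalling. Etv5, on chromosome 16 from 22381313 to 22439570, had 3.9, 12.8 and 12.4 CPM in the knockout single embryos 1, 3 and 4, against 11.7, 10.7 and 19.9 CPM in the wild-type embryos 1 to 3. It had 10.1 and 9.6 CPM in the knockout pools, against 12.6 and 13.3 CPM in the control pools. The pools did not overlap, with the knockout lower, and the single embryos did overlap. The log2 changes were -0.53 (SE 0.50, edgeR adjusted p = 0.583) in single embryos and -0.48 (SE 0.22, adjusted p = 0.756) in pools. Etv4, on chromosome 11 from 101769747 to 101785310, was low, with 0, 31 and 0 counts in the knockout single embryos 1, 3 and 4, against 6, 0 and 46 counts in the wild-type embryos 1 to 3. A count of 0 allows up to 0.17 CPM in each of those libraries. The pools had 16 and 20 counts in the knockout, against 4 and 32 counts in the control. Etv4 did not pass the filter on low counts in single embryos, and its log2 change in pools was -0.02 (SE 0.92, adjusted p = 0.998).

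In levels per kilobase of exon, Spry2, Fgfr2 and Fgfr1 were the 3 highest members in each of the 4 groups. They averaged 13.4 ± 8.63, 12.7 ± 3.34 and 6.78 ± 4.87 CPM per kilobase in knockout single embryos, against 26.1 ± 8.57, 28.0 ± 2.82 and 25.9 ± 9.62 in wild-type single embryos (SD, n = 3 each). In pools they averaged 21.5, 13.8 and 6.11 CPM per kilobase in the knockout, against 22.3, 14.1 and 6.59 in the control (n = 2 each). Their ranges overlapped in knockout and in wild-type single embryos, so that their order is not resolved in either. Below them, Fgfr4 averaged 1.99 ± 0.625 CPM per kilobase in knockout and 4.14 ± 0.797 in wild-type single embryos. Etv5 averaged 2.41 ± 1.25 in knockout and 3.50 ± 1.25 in wild-type single embryos, and Fgf4 averaged 1.98 ± 1.47 in knockout and 2.73 ± 0.573 in wild-type single embryos. The ranges of these 3 overlapped in knockout embryos, and in wild-type embryos that of Etv5 overlapped both others. Etv4 was the lowest in every group, between 0.160 and 0.424 CPM per kilobase on average.

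For 3 members, the genes whose levels moved most alike over the 10 libraries were listed, by Pearson's r of deviations from each set's mean over 8009 genes that reached 10 CPM. Libraries of a group share genotype and are of similar depth, and the deviations keep the genotype difference within each set. The genes named are the highest of that ranking. For Fgfr2 they were Lrp10 (r = 0.997), Macf1 (0.993) and Erp29 (0.992). For Fgf4 they were Ly6f (0.981), Pmvk (0.972) and Igf2bp3 (0.971), and for Dusp6 they were Snap47 (0.986), Chchd3 (0.976) and Tsen34 (0.973).

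The rest of the pathway was read from listed genes. Of 23 coreceptor and heparan sulphate genes, 16 were tested in single embryos, where 2 fell and 0 rose, beside 4.37% of all genes called. At an unadjusted p under 0.05, 8 of the 16 passed, beside 22.6% of all genes, and the median log2 change was -0.85 (all genes -0.03). Sdc4, which encodes a cell surface proteoglycan that carries heparan sulphate, fell to 384.8 ± 54.8 CPM in knockout single embryos, against 795.3 ± 63.5 CPM in wild-type embryos (log2 change -1.0, SE 0.18, edgeR adjusted p = 0.0188). Ext2, which encodes part of the enzyme that builds the heparan sulphate chain, fell to 16.9 ± 3.35 CPM in knockout embryos, against 42.1 ± 10.9 CPM in wild-type embryos (-1.28, SE 0.30, adjusted p = 0.0391). The Sdc4 call was lost without wild-type embryo 1 (adjusted p = 0.0768), wild-type embryo 3 (0.0843) or knockout embryo 4 (0.0921), and the Ext2 call was lost without each library but knockout embryo 3 (0.0929 to 0.139). In pools, 19 of the 23 were tested and none passed by edgeR, DESeq2 or limma-voom. There 3 had an unadjusted p under 0.05, beside 6.6% of all genes, and the median was 0.12 (all genes 0.01). The 2 with the smallest p in pools were Sdc1 (1.28, SE 0.39, adjusted p = 0.584) and Gpc4 (0.90, SE 0.32, adjusted p = 0.672), both proteoglycan genes.

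Downstream of the receptors, 25 of 25 adaptor and Ras to ERK genes were tested in each set, and none passed by edgeR or limma-voom, with medians of -0.17 in single embryos and 0.01 in pools. At an unadjusted p under 0.05, 3 and 0 passed, beside 22.6% and 6.6% of all genes. Sos1, the exchange factor that activates Ras, averaged 53.1 ± 8.91 CPM in knockout and 94.1 ± 18.8 CPM in wild-type single embryos (-0.79, SE 0.25, edgeR adjusted p = 0.0957), and DESeq2 called it. Rasa1, a Ras GTPase activator, averaged 42.8 ± 7.82 CPM in knockout and 70.8 ± 11.9 CPM in wild-type single embryos (-0.69, SE 0.26, adjusted p = 0.145).

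Among 24 further feedback and ERK target genes, 18 were tested in single embryos. There 0 fell and 1 rose, beside 4.37% of all genes called. The median was 0.05, and 3 had an unadjusted p under 0.05, beside 22.6% of all genes. Dusp14, which encodes a dual-specificity phosphatase, rose to 210.4 ± 39.0 CPM in knockout single embryos, against 106.0 ± 6.69 CPM in wild-type embryos (log2 change 1.05, SE 0.22, edgeR adjusted p = 0.0297). The call was lost without wild-type embryo 1 (adjusted p = 0.104), 2 (0.0632) or 3 (0.110) and without knockout embryo 1 (0.113) or 4 (0.108). In pools Dusp14 averaged 147.8 ± 21.5 CPM in the knockout and 190.3 ± 29.0 CPM in the control (-0.45, SE 0.20, adjusted p = 0.753), and the difference between the sets did not pass (1.52, SE 0.33, adjusted p = 0.235). The immediate early gene Fos averaged 2.47 ± 1.13 CPM in knockout and 7.59 ± 3.74 CPM in wild-type single embryos (-1.6, SE 0.65, adjusted p = 0.176). In pools 18 were tested and none passed by edgeR, DESeq2 or limma-voom. There 4 had an unadjusted p under 0.05, beside 6.6% of all genes. The smallest p in pools were those of Spry1, a further Sprouty gene (-0.87, SE 0.34, edgeR adjusted p = 0.697), and Ier3 (-0.57, SE 0.23, adjusted p = 0.702).

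Of 18 lineage genes that act with FGF signalling in the early embryo, 16 were tested in each set, and none passed by edgeR or limma-voom, with medians of -0.22 in single embryos and -0.11 in pools. At an unadjusted p under 0.05, 2 and 3 passed, beside 22.6% and 6.6% of all genes. Klf5, a regulator of the early lineages, averaged 392.8 ± 29.2 CPM in knockout and 264.2 ± 45.2 CPM in wild-type single embryos (0.62, SE 0.20, edgeR adjusted p = 0.0938), and DESeq2 called it. Pdgfra, a primitive endoderm marker, averaged 25.1 ± 26.2 CPM in knockout and 83.3 ± 65.5 CPM in wild-type single embryos (-1.76, SE 0.80, adjusted p = 0.220). In pools the smallest p were those of Nanog, an epiblast gene (-0.51, SE 0.16, adjusted p = 0.621), and Gata4, a primitive endoderm gene (1.56, SE 0.51, adjusted p = 0.630).

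In the fit averaged over both sets, no gene of these 5 lists passed by edgeR, DESeq2 or limma-voom. At an unadjusted p under 0.05, 1 further FGF gene, 5 coreceptor or heparan sulphate genes and 1 gene of each other list passed. Over all genes the share was 11.6%. Tested there were 6 further FGF genes, 16 coreceptor or heparan sulphate genes, 25 adaptors, 20 feedback or target genes and 17 lineage genes. Among further FGF genes, the smallest p were those of Fgf13 (2.12, SE 0.96, edgeR adjusted p = 0.420) and Fgf18 (1.31, SE 0.76, 0.495). Among coreceptor and heparan sulphate genes, Sdc4 had the smallest p (-0.58, SE 0.20, 0.308). Next was Glce, which encodes an enzyme that modifies heparan sulphate (-0.88, SE 0.31, 0.319). Among adaptors the smallest p were those of Rasa1 (-0.50, SE 0.18, 0.321) and Sos1 (-0.40, SE 0.21, 0.471). Among feedback genes and targets they were those of Fos (-0.97, SE 0.44, 0.416) and Il17rd, which encodes an FGF receptor inhibitor (-0.75, SE 0.39, 0.467), and among lineage genes those of Klf5 (0.40, SE 0.17, 0.392) and Pdgfra (-1.10, SE 0.61, 0.483).

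**Figure D4:**
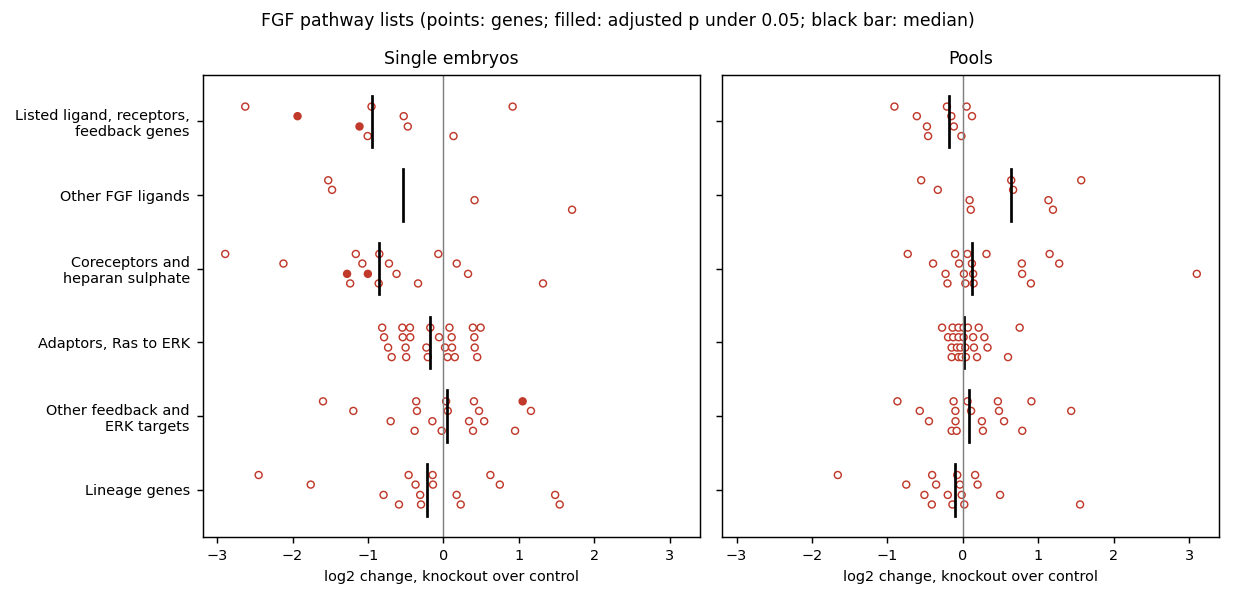
Log2 change, knockout over control, of each tested gene of the FGF pathway lists in single embryos (left) and pools (right); points are genes, filled points have an adjusted p under 0.05 by edgeR, and black bars are list medians. Coreceptor and heparan sulphate genes have a median of -0.85 in single embryos and 0.12 in pools.

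Levels of cell type markers and a property of the encoded proteins are given beside these results. Summed over 7 trophectoderm markers, the level was 970.4 to 2159 CPM in knockout and 1753 to 1922 CPM in wild-type single embryos, and 736.4 to 1055 CPM in knockout and 867.6 to 1253 CPM in control pools. The 6 primitive endoderm markers came to 848.4 to 1075 CPM in knockout and 852.3 to 1038 CPM in wild-type single embryos, and to 829.4 to 880.0 CPM in knockout and 871.7 to 949.7 CPM in control pools. These sums hold members that differ in direction: Dab2 averaged 659.5 CPM in knockout and 446.3 CPM in wild-type single embryos, and Gata6 averaged 294.1 CPM in knockout and 413.6 CPM in wild-type single embryos, with 4 of the 6 below 0 and a median log2 change of -0.38. The 5 epiblast markers, of which Fgf4 is 1, came to 217.3 to 485.8 CPM in knockout and 372.6 to 535.5 CPM in wild-type single embryos, and to 269.6 to 323.9 CPM in knockout and 330.1 to 378.3 CPM in control pools. None of these 3 marker lists had a gene past 5% by edgeR. At an unadjusted p under 0.05 they had 2 genes in single embryos (primitive endoderm), beside 22.6% of all genes. In pools they had 1, 1 and 2, beside 6.6% of all genes. DESeq2 called 1, the primitive endoderm gene Dab2, which it found higher in knockout single embryos.

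The members that passed belong to a large group. Of genes whose longest protein has a hydrophobic segment of 19 residues, as membrane and secreted proteins have, 380 of 3808 (9.98%) fell in single embryos and 14 rose, with a median log2 change of -0.50. Of genes without such a segment, 53 of 7870 (0.673%) fell and 138 rose, with a median of 0.14. In pools the medians were 0.01 and -0.01. The 4 receptor genes, Fgf4 and Spry4 have the segment, and Spry2, Dusp6, Etv4 and Etv5 do not. The rule reads sequence alone, not where a protein lies, and Sos1, the Ras exchange factor named above, also has the segment. All 16 tested coreceptor and heparan sulphate genes have it too, and Dusp14 does not. This division was chosen after the data were seen, and its part in the receptor result was not tested.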

How the data were processed

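Polyadenylated RNA of 10 morula libraries was made into cDNA with a SMART-Seq kit, built into Nextera XT libraries and read single-end for 75 bases on an Illumina NextSeq, per the labels' protocols. The authors deposited 1 table of whole-number read counts per gene, not normalized. Per the submitters' processing notes the tools were fastp 0.21.0, STAR 2.7.6a and RSEM 1.3.1 and the build was mm10. Their roles, the annotation, and how strand and multiple matches were handled are not given in those notes.

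CPM were computed from library totals, and levels per kilobase from merged exons of GENCODE (GRCm38). Counts were tested over all genes in R 4.3.3 with edgeR 4.0.16: filterByExpr, TMM, quasi-likelihood F test, Benjamini-Hochberg at 5%. SE is the size of the log2 change over the square root of F. Single embryos and pools were fitted separately; average and difference fits use all 10 libraries and so share libraries with these. Alternatives were DESeq2 1.42.0, limma-voom 3.58.1, DESeq2 size factors, no filter, a replicate block, 1 joint fit and leaving out each library. The procedure was tested on simulated data. A hydrophobic segment is a window of 19 residues with a mean hydropathy of at least 1.6 (Kyte and Doolittle).

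Named were all members, list genes past 5% (up to 4 per list) or otherwise the 2 with the smallest p, and 3 most alike genes. The members and lists were chosen with earlier results of these data known. Reads carry no molecular identifiers, so floors cover counting error only. RefSeq promoters matched 7 of 10 members.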

Additional observations from a re-analysis of the deposited data

How the results depend on the processing

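Genes past 5% in single embryos numbered 605 by edgeR, 1957 by DESeq2, 1715 without the filter, 1667 in 1 fit of all libraries, and 1 to 1316 with 1 library left out (1 without wild-type embryo 3 or knockout embryo 4, 41 without wild-type embryo 1, 66 without knockout embryo 1, 1316 without knockout embryo 3). In pools edgeR called 0, DESeq2 71, limma-voom 1, no filter 170, and 25 to 379 with 1 pool left out, where the lone library is assumed to vary like the other group. The average effect had 0 by edgeR, 367 by DESeq2, 637 without the filter and 0 to 121 with 1 library left out. The difference had 1, 544, 548 and 0 to 2. Members past 5% in single embryos were 2 by edgeR, 4 without the filter and 0 to 3 with 1 library left out. For the average effect, 0 members passed by edgeR, 1 by DESeq2 and 2 without the filter. In pools 0 members passed under every alternative run.

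Some fitted changes turned sign, each of them smaller than its SE in the main fit. The largest of these was the average change of Etv4, at -0.57 (SE 1.37). In pools limma-voom gave 0.43 for Etv4 and -0.16 for Fgfr3. With 1 library left out, the pool changes ranged from -0.81 to 1.95 for Etv4, -0.62 to 0.11 for Fgfr1, -0.29 to 0.070 for Fgfr2, -1.06 to 0.76 for Fgfr3, -0.45 to 0.17 for Spry2 and -0.038 to 0.14 for Spry4. Spry4 ranged from -0.11 to 0.44 in single embryos and -0.013 to 0.28 on average, Dusp6 from -0.21 to 0.76 and Etv4 from -2.43 to 0.74 on average. The cause was not tested.

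Replicate numbers are shared, but the labels tie them to no litter or batch. In single embryos, deviations of same-numbered libraries correlated at -0.05 and -0.17, and those of differently numbered ones at -0.28 to 0.29. In pools the value was 0.57 for the same number and -0.57 otherwise. With 2 pools a group the deviations mirror each other. The pool values are thus the same number with its sign turned, and a shared batch was not tested. Among single embryos, only numbers 1 and 3 occur in both genotypes. With the replicate number as a block, wild-type embryo 2 and knockout embryo 4 therefore add nothing to the estimated knockout change. In that fit 187 genes passed in single embryos, 39 in pools and 0 for the difference. Of the members, 1 passed in single embryos, Fgfr1 (-2.20). Fgfr2 (-1.12, adjusted p = 0.190), Sdc4 (-0.96, 0.204), Ext2 (-1.09, 0.357) and Dusp14 (0.97, 0.254) then did not pass. In pools the block gave 0.40 for Etv4 and -0.079 for Fgfr3.

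With 3 or 2 libraries a group, 1 library decides several calls. Of 517 further values under alternatives, 447 kept direction and side of the threshold, 21 turned sign, 20 newly passed and 29 no longer passed. All 29 came from the single-embryo calls of Fgfr1, Fgfr2, Jarid2, Sdc4, Ext2 and Dusp14. No other of these results passed in the main fit, and a result that did not pass has no call to lose. Of 12 alternatives each, Fgfr1, Jarid2 and Sdc4 passed under 8, Fgfr2 under 7, and Ext2 and Dusp14 under 6.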

Other observations

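Among the knockout single embryos, 7 of the 10 members (Fgf4, Fgfr1, Fgfr2, Fgfr3, Spry2, Etv4 and Etv5) were highest in replicate 3, as were 45.5% of the 13830 genes tested in that set. Replicate 1 was lowest for 6 of the 10, a tie at 0 counts with replicate 4 for Etv4 included, and for 40.9% of all genes tested. In pools, replicate 2 was above replicate 1 for 8 of 10 members in the knockout and for 8 in the control, and 8 members had the same direction in both genotypes. Of the 16259 genes tested in pools, the shares were 63.6%, 56.2% and 65.3%.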
